A study of Rattus norvegicus with 6 samples.

Results

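Defensins are small secreted peptides, and the genes of 45 of them were followed here in the lining of the rat oviduct. They are all genes with a probe set of exactly 1 annotated symbol that starts with Defa or Defb, out of 14506 genes so measured on the array. Of the 45, 37 are beta-defensin genes and 8 are alpha-defensin genes, so the set is wider than beta-defensins alone. RNA was taken from the endosalpinx, as this mucosa is called. It came from 6 adult Sprague-Dawley rats, and each rat had an array to itself. The 3 mated rats had been caged with a fertile male at 2200 h of pro-estrus, carried sperm or a plug when checked 30 min later, and were killed 3 h after mating. The 3 unmated rats were kept alone and killed at the same clock time, 0130 h of estrus, and no age is given beyond adult for either group. Semen was abundant in the uterus of the mated rats per the labels, and uterine edema was recorded for the unmated ones. The company of a male and the handling came only with mating, and their effects and those of mating itself cannot be told apart.

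Defensins carry pairs of cysteines joined by disulfide bonds and a positive charge, and they damage the membranes of microbes. Alpha-defensins are known mainly from neutrophils and from the Paneth cells of the small intestine. Beta-defensins are made by epithelia. Most rodent beta-defensin genes are known from the epididymis, where several of the peptides coat sperm and take part in motility and in passage through the female tract.

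Values are log2 RMA signals, so a difference of 1 is a 2-fold change. Array medians, taken over all probe sets, ran from 7.89 to 7.94. All 10 measured markers of oviduct epithelium, of 11 listed, were bright, with means over the 6 arrays from 10.69 to 12.97. Background was judged by the olfactory receptor genes, whose transcripts belong mainly to sensory neurons. The means of 1105 of them had a median of 5.74 and a 95th percentile of 7.13, called the receptor limit below. The brightness of a probe set also depends on its probes, so an order of signals is not an order of transcript amounts. In a tissue extract, few cells with much RNA and many cells with little RNA cannot be told apart.

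Of the 45 defensin genes, 4 lay above the receptor limit in the average of the 6 arrays, namely Defb25, Defb36, Defb43 and Defb21. Over all genes 71.1% did so, and among the receptors that set the limit the share is 5.07% by construction. Only Defb25 and Defb36 stayed above the limit when it was taken separately on each of the 6 arrays. They are neighbours at 1 end of a run of 12 defensin genes in the RefSeq table of the rat assembly GRCr8. The 250 bases before the start of each, and of the dim gene Defb27 next to them, are shown to set the bright pair beside a neighbour within the receptor range. They are RefSeq sequences of GRCr8, each read 5′ to 3′ on its own strand, at chr3:161560026-161560275 on the minus strand, chr3:161538026-161538275 on the plus strand and chr3:161529041-161529290 on the minus strand, and capitals mark a match to 1 of 5 searched motifs.
Defb25: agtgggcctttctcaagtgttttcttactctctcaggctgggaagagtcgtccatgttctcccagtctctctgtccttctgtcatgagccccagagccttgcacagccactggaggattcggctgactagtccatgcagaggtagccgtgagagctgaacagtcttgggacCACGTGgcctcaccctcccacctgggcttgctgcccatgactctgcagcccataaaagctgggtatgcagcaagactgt
Defb36: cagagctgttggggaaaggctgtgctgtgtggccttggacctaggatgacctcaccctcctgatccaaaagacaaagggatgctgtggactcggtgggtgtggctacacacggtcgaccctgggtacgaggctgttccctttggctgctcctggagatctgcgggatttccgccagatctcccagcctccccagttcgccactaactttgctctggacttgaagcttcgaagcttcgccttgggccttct
Defb27: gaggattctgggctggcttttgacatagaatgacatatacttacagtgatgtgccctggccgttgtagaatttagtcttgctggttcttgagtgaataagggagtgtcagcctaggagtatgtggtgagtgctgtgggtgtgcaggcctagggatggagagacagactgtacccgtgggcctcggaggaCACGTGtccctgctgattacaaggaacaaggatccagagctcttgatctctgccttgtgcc

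The 5 motifs were read on both strands in the same 250 bases. They were the TATA box as TATAAA, the CCAAT box, the AP-1 site as TGANTCA, the NF-kB consensus and the E-box CACGTG. The E-box, which reads the same on both strands, was added after the Defb25 sequence had been seen. The capitals in the Defb25 and Defb27 sequences are matches to it, and Defb36 held none of the 5 motifs. The E-box occurred in 3 of the 26 defensin promoters with a sequence, those of Defb25, Defb27 and Defb52, and in 5.59% of all 33469 promoters. It thus occurred before a bright member and before 2 dim ones. The TATA box was found before 6 of the 26 and in 12.9% of all promoters, the CCAAT box before 11 of the 26 and in 34.0% of all. The AP-1 site stood before 3 of the 26 and in 6.34% of all, and the NF-kB consensus before 1 of the 26 and in 6.33% of all. The G and C content was 56.0% before Defb25, 58.0% before Defb36 and 51.6% before the dim Defb27. The 26 defensin promoters ran from 33.2% to 58.0%, with the bright pair at the upper end. The median of the 26 was 47.6%, beside 51.2% for all promoters, so Defb27 too lay above the median of the 26. A link between this content and the signal was not tested.

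Defb25 had by far the brightest probe set of the family. Its log2 signal was 9.94, 10.37 and 10.37 in mated rats, against 10.38, 10.19 and 10.11 in unmated rats. The groups overlapped, with values from 9.94 to 10.37 in mated rats and from 10.11 to 10.38 in unmated rats. The means were 10.23 ± 0.25 in mated and 10.23 ± 0.14 in unmated rats (SD, n = 3 each), a difference of 0.00 with a 95% confidence interval from -0.30 to 0.30. As a ratio of mated to unmated, the interval ran from 0.81-fold to 1.23-fold. With 1 array left out at a time the difference ran from -0.07 to 0.14, the highest without mated replicate 1, the animal at 9.94. Every value of Defb25 lay above 9.70, the highest mean of any olfactory receptor.

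Defb36 came next, at 8.19, 8.05 and 8.13 in mated rats, against 8.02, 8.53 and 8.10 in unmated rats. The lowest and the highest value both came from unmated rats, so the mated values lay within the unmated range. The difference was -0.09 (95% confidence interval -0.40 to 0.21), and without unmated replicate 2, the animal at 8.53, it was 0.06. Only 3 of the 1105 receptors had a higher mean than Defb36.

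**Figure D1:**
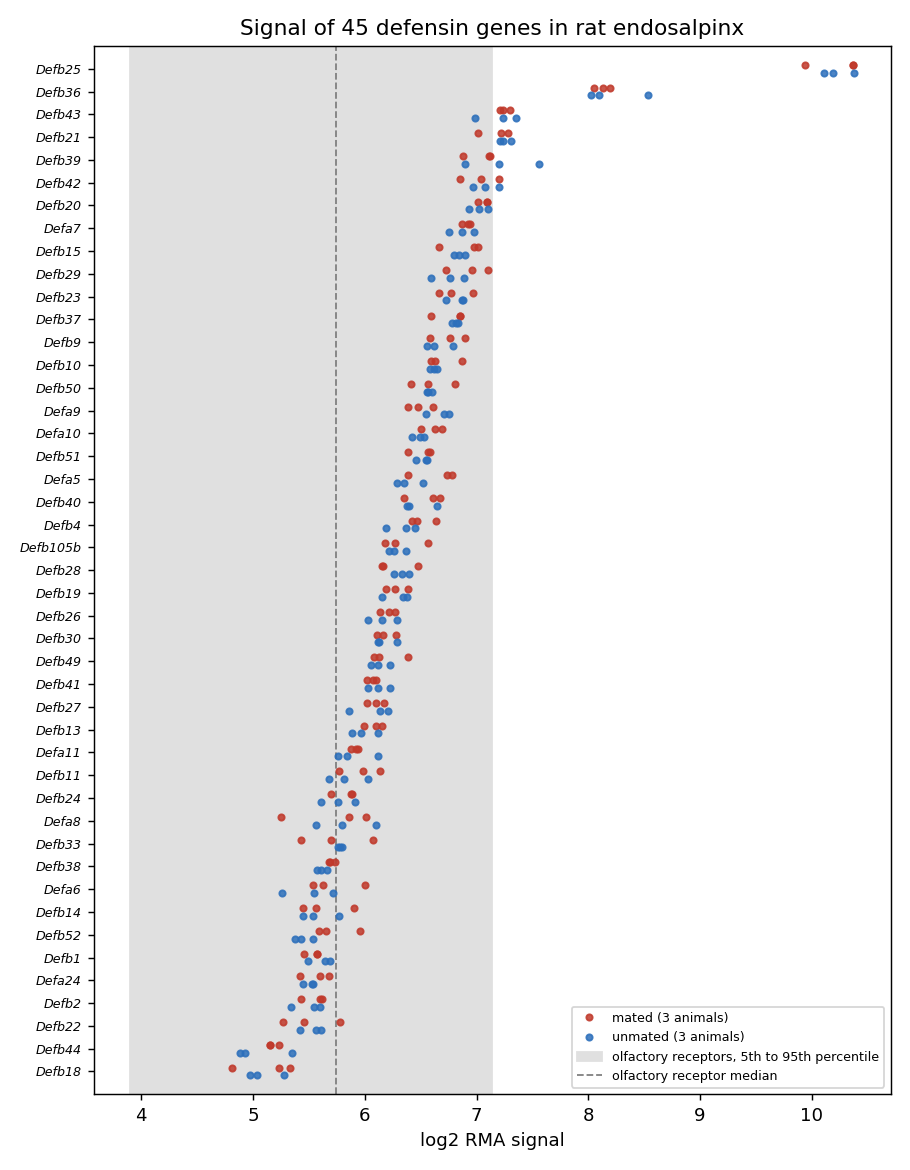
Log2 RMA signal (horizontal axis) of each of the 45 defensin genes in 3 mated rats and 3 unmated rats, 1 point for each animal, with genes ordered by their mean. The shaded band spans the 5th to 95th percentile of 1105 olfactory receptor genes, and Defb25 and Defb36 alone lie to its right with all 6 points.

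Defb43 and Defb21 passed the limit narrowly. Defb43 was at 7.21, 7.24 and 7.30 in mated rats, against 6.99, 7.24 and 7.35 in unmated rats, and differed by 0.06 (95% confidence interval -0.17 to 0.29). Defb21, which lies in the same run as Defb25, was at 7.01, 7.22 and 7.28 in mated rats, against 7.21, 7.24 and 7.31 in unmated rats, and differed by -0.08 (-0.28 to 0.12). Both exceeded the limit of the array on 5 of the 6 arrays, and 43 receptors had a higher mean than either. The next members fell just below the limit. Defb39 averaged 7.13 over the 6 arrays, with 6.88, 7.11 and 7.12 in mated rats, against 7.20, 7.56 and 6.90 in unmated rats. It differed by -0.18 (95% confidence interval -0.55 to 0.18), the lowest difference of the 45 members. Its highest value, like that of Defb36, came from unmated replicate 2. Defb42 averaged 7.06, with 6.85, 7.20 and 7.04 in mated rats, against 7.08, 6.97 and 7.20 in unmated rats. In these 4 genes too the groups overlapped. Moving the limit to the 90th percentile of the receptors admitted 12 members, and moving it to the 99th left 2, Defb25 and Defb36.

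In the order of the RefSeq table the defensin genes fall into 4 runs, counting as 1 run genes with at most 10 other genes between neighbours. The run that holds Defb25 has 12 genes, all measured, and 3 of them were above the limit. From the far end it reads Defb23, Defb20, Defb22, Defb26, Defb28, Defb29, Defb19, Defb21, Defb24, Defb27, Defb36 and Defb25. The 9 dim genes had means from 5.52 for Defb22 to 7.04 for Defb20, with Defb27, the neighbour of the bright pair, at 6.08. The bright pair thus stands at the edge of a mostly dim run. Beyond Defb25 the nearest gene is Rem1, which encodes a small GTPase, at a mean of 8.20, and the next measured one is Hm13, which encodes signal peptide peptidase, at 10.92. At the other end the run borders C3h20orf96, at 9.50. Rem1 averaged 8.17 in mated and 8.23 in unmated rats, and Hm13 averaged 10.90 in mated and 10.93 in unmated rats. Whether transcripts of these neighbours contribute to the Defb25 or Defb36 probe sets was not tested. The run that holds Defb43 had 1 of 5 measured genes above the limit. The largest run, with 26 measured genes including all 8 alpha-defensins, had 0 above it, and the smallest, with 2 measured genes, had 0 as well.

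**Figure D2:**
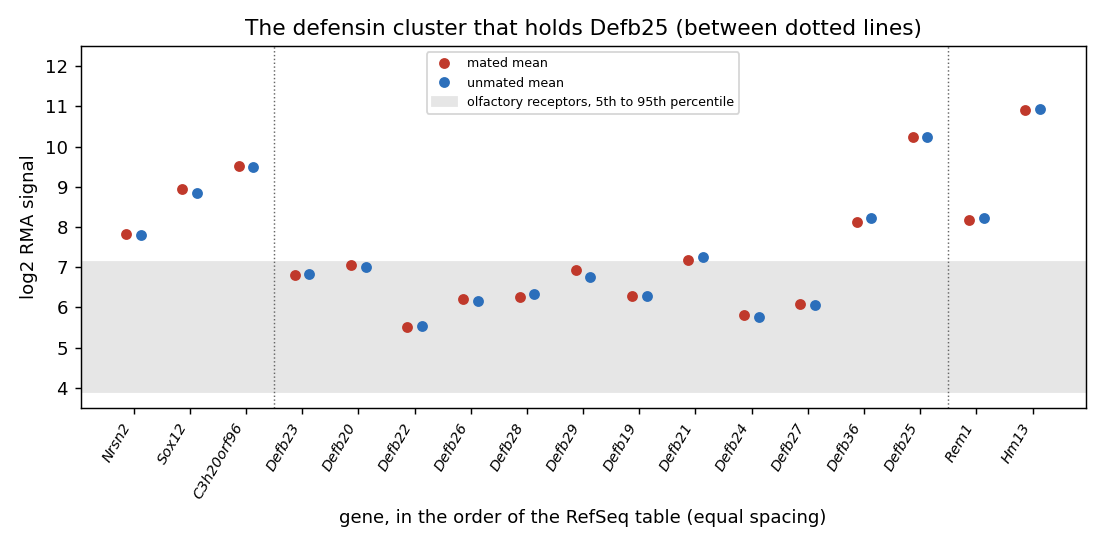
Mean log2 RMA signal (vertical axis) in mated rats and unmated rats for the 12 genes of the run that holds Defb25, between the dotted lines, and for the measured genes among the nearest 4 on either side, in the order of the RefSeq table with equal spacing. Defb36 and Defb25 at the right end, and Defb21 narrowly, lie above the shaded receptor range, and the means of mated and unmated rats lie close together for every gene.

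The beta-defensins best known from epithelia lay within the receptor range. Defb1, whose human and mouse counterparts are made constantly by many epithelia, was at 5.46, 5.57 and 5.57 in mated rats, against 5.69, 5.64 and 5.49 in unmated rats. Defb4, whose human counterpart is induced by microbes and cytokines, was at 6.42, 6.64 and 6.47 in mated rats, against 6.19, 6.37 and 6.45 in unmated rats. Defb14, related to another inducible human defensin, was at 5.45, 5.90 and 5.56 in mated rats, against 5.45, 5.54 and 5.77 in unmated rats. For all 3 genes the groups overlapped. The differences were -0.07 (95% confidence interval -0.26 to 0.11) for Defb1, 0.17 (-0.04 to 0.39) for Defb4 and 0.05 (-0.26 to 0.36) for Defb14. Signals within this range do not show whether a transcript is present at a low level or absent.

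Defb22 and Defb15, picked after their values were seen for what is known of them in the male tract, lay within the receptor range. Defb22, the rat counterpart of a primate defensin that coats sperm in the epididymis, was at 5.27, 5.46 and 5.78 in mated rats, against 5.42, 5.56 and 5.61 in unmated rats. Defb15 had 2 probe sets of its own, with means of 6.87 and 6.70, both within the receptor range, and differences of 0.04 and -0.01. Of 19 measured markers of sperm and the male tract, 3 lay above the limit, namely Spink8 at 9.59, Prm1 at 7.86 and Prm2 at 7.66. Prm1 and Prm2 encode protamines of sperm chromatin. Prm1 was at 7.87, 7.99 and 7.98 in mated rats, against 7.82, 7.69 and 7.82 in unmated rats, and Prm2 was at 7.48, 7.72 and 7.73 in mated rats, against 7.53, 7.66 and 7.81 in unmated rats. Both were thus above the limit in rats without sperm too. Of the 19, 12 were higher and 7 lower in mated rats by their means. Higher in mated rats were 53.2% of all genes and 62.9% of the genes at or below the receptor limit. At an unadjusted p under 0.05 by limma there were 2, Gpx5 and Tnp1, beside 4.57% of all genes. Both were lower in mated rats and within the receptor range. Gpx5, which had the smallest p, was at 5.25, 5.11 and 5.19 in mated rats, against 5.39, 5.39 and 5.47 in unmated rats. The differences were -0.23 for Gpx5 and -0.18 for Tnp1, and 0 markers passed the adjusted threshold. Groups did not overlap for these 2 or for Prm1, which was higher in mated rats. Summed over the 19 markers, the log2 signals ran from 119.72 to 122.59 in mated rats and from 120.16 to 121.74 in unmated rats.

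None of the 8 alpha-defensin genes reached the limit, and their means ran from 5.54 for Defa24 to 6.89 for Defa7. Defa5, which includes the neutrophil peptide ratNP-1 among its synonyms, was at 6.39, 6.78 and 6.74 in mated rats, against 6.29, 6.52 and 6.35 in unmated rats. The value of mated replicate 1 lay among those of the unmated rats, and the difference was 0.25 (95% confidence interval -0.02 to 0.52). Defa9 was at 6.39, 6.61 and 6.48 in mated rats, against 6.71, 6.75 and 6.55 in unmated rats, a difference of -0.18 (-0.38 to 0.02). Over the 8 genes 6 were higher and 2 lower in mated rats by their means. Over all genes 53.2% were higher, and among the genes at or below the receptor limit 62.9%. Of the 8 alpha-defensin genes, 0 had an unadjusted p under 0.05 by limma, beside 4.57% of all genes. Of 13 neutrophil markers 3 lay above the limit, namely Ltf, which encodes the granule protein lactoferrin, at 10.08, Prtn3, a granule protease, at 7.37, and Ncf1 at 7.31. The granule genes Mpo and Elane lay within the receptor range at 6.99 each. By their means 10 of the 13 were higher in mated rats, beside 53.2% of all genes and 62.9% of the genes at or below the receptor limit. At an unadjusted p under 0.05 by limma there were 2, beside 4.57% of all genes, and 0 passed the adjusted threshold. Elane, which had the smallest p, was at 7.08, 7.15 and 7.08 in mated rats, against 6.82, 6.89 and 6.93 in unmated rats. Its groups did not overlap, and the difference was 0.22 (95% confidence interval 0.07 to 0.38; adjusted p = 0.984 by limma). The summed log2 signal of the 13 markers ran from 88.37 to 89.58 in mated rats and from 87.28 to 88.87 in unmated rats. Of 7 Paneth and intestinal markers 4 lay above the limit, led by Mmp7, a protease that activates mouse alpha-defensins, at 11.60. Itln1, Cdx2 and Fabp2 lay within the receptor range, at 5.80, 7.07 and 4.80. The summed signals of the 7 markers ran from 54.74 to 55.93 in mated rats and from 54.75 to 56.51 in unmated rats. The part of neutrophils or Paneth cells in the alpha-defensin signals was not tested.

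Mating at 3 h was accompanied by no called change in any defensin gene. With limma over all 14506 genes, 0 of the 45 members and 0% of all genes had an adjusted p under 0.05, and the smallest adjusted p was 0.984. At an unadjusted p under 0.05 there was 1 member, Defb52, beside 4.57% of all genes in either direction and 3.02% higher in mated rats. The groups did not overlap for 2 members, Defb52 and Defb38, both higher in mated rats, beside 8.47% of all genes in either direction and 5.24% higher in mated rats. Neither count of members exceeds the share over all genes. Of the intervals, the median one reached 0.23 to either side of its estimate and the widest, that of Defa8, 0.48. No member differed by more than 0.5 in its estimate, and over all 14506 genes only 52 did. Differences smaller than the intervals of the members could not be resolved with 3 arrays in each group.

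Defb52 was at 5.96, 5.59 and 5.65 in mated rats, against 5.43, 5.38 and 5.54 in unmated rats. All values lay below the receptor median of 5.74 except that of mated replicate 1. The difference was 0.28 (95% confidence interval 0.04 to 0.53; unadjusted p = 0.0295 and adjusted p = 0.984 by limma), and without mated replicate 1 it was 0.17. The unadjusted p by limma was 0.0664 without mated replicate 1, 0.0693 without unmated replicate 1, 0.0881 without unmated replicate 2 and 0.0608 after quantile normalization was applied again. Defb38 was at 5.73, 5.68 and 5.69 in mated rats, against 5.61, 5.57 and 5.66 in unmated rats. Its groups nearly touched, between 5.68 in mated and 5.66 in unmated rats, and the difference was 0.09 (-0.06 to 0.24).

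**Figure D3:**
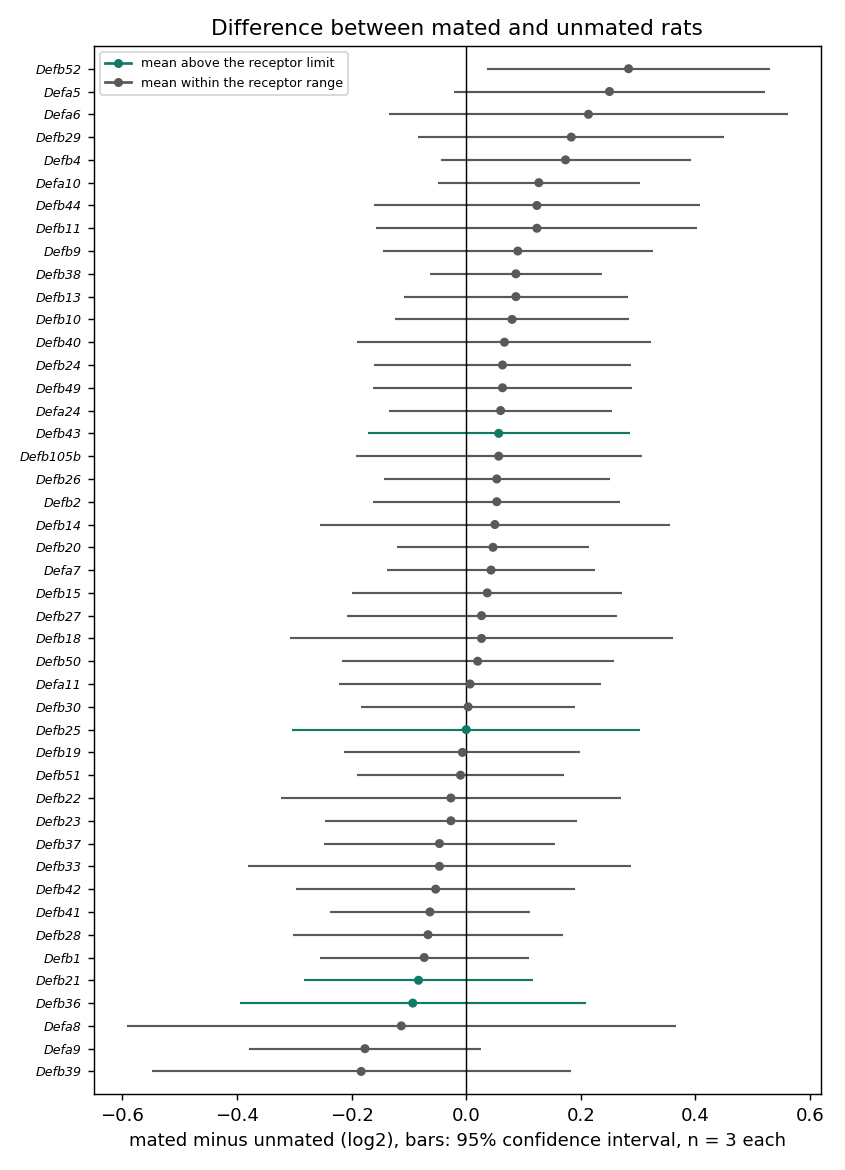
Mated minus unmated difference in log2 RMA signal (horizontal axis) for each of the 45 defensin genes, as the limma estimate with its 95% confidence interval, n = 3 each. All intervals include 0 except that of Defb52, at 0.28, and the 4 genes above the receptor limit lie between -0.09 and 0.06.

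By the sign of the difference, 29 members were higher in mated rats, 15 were lower and Defb25 was equal. The share higher in mated rats was 64.4% of the members, beside 53.2% of all genes and 51.5% of the olfactory receptors. The median difference was 0.04, beside 0.01 over all genes and 0.01 over the olfactory receptors. Among the 4198 genes at or below the receptor limit, whatever their function, 62.9% were higher in mated rats and the median was also 0.04. Of the 41 members within the range, 68.3% were higher in mated rats, and the median difference of these members was 0.05. Members varied slightly more than other dim genes, mainly in mated rats. The median SD within a group was 0.14 in mated and 0.12 in unmated rats for all 45 members. For the 41 members within the range it was 0.15 in mated and 0.12 in unmated rats. All genes within the limit had 0.12 in mated and 0.11 in unmated rats.

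The members also shifted from array to array. The median deviation of the 45 members from their own means was -0.09, 0.06 and 0.06 on the 3 mated arrays, against -0.03, -0.04 and 0.03 on the 3 unmated arrays. The olfactory receptors shifted by -0.09, 0.06 and 0.03 on the mated arrays, against 0.04, -0.07 and 0.01 on the unmated arrays, while all genes stayed within 0.02 of 0. Mated replicate 1 gave the lowest value of the 6 for 17 of 45 members and for 36.0% of the receptors. Mated replicate 2 gave the highest value for 18 of 45 members and for 27.3% of the receptors. Without mated replicate 1 the median difference of the members was 0.09, and without mated replicate 2 it was -0.01. On unmated replicate 1 the members and the receptors shifted in opposite directions. The part of these shifts in the members' differences was not tested.

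**Figure D4:**
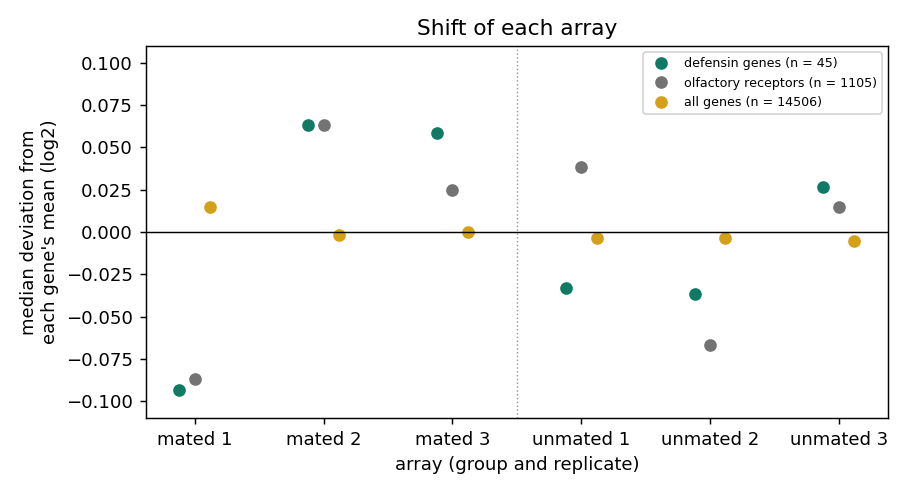
Median deviation from each gene's mean over the 6 arrays (vertical axis, log2) on each array, for the 45 defensin genes, 1105 olfactory receptors and all 14506 genes. The members and the receptors are both lowest on mated replicate 1 and both highest on mated replicate 2.

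Other antimicrobial proteins gave a wider spread of signal than the defensins. Of 25 measured genes in that list 13 lay above the limit. The brightest was Lcn2, which encodes an iron-withholding lipocalin, at 13.54, 13.89 and 13.90 in mated rats, against 13.84, 13.57 and 13.85 in unmated rats. The list also holds Spag11b, chosen here after its values were seen, an epididymal gene with defensin-like products. It was at 9.17, 8.58 and 8.51 in mated rats, against 8.70, 9.21 and 8.99 in unmated rats, and its groups overlapped, with a difference of -0.21 (95% confidence interval -0.66 to 0.23). Slpi, a protease inhibitor of mucosal surfaces, had the smallest p of the list, at 12.72, 13.01 and 12.83 in mated rats, against 12.61, 12.49 and 12.37 in unmated rats. Its groups did not overlap, and the difference was 0.36 (95% confidence interval 0.14 to 0.59; unadjusted p = 0.00624 and adjusted p = 0.984 by limma). Over the list 13 genes were higher and 12 lower, with a median difference of 0.02, and 0 passed the adjusted threshold.

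Of 19 measured genes listed as receptors and inducers of defensins, 15 were above the limit. The 4 within the receptor range were Ccr6, a chemokine receptor that binds beta-defensins in humans, at 7.05, Ccr2 at 6.94, Nod2 at 6.90 and Tlr2 at 6.57. Esr1, the estrogen receptor, was the brightest at a mean of 12.10. Vdr, the vitamin D receptor, which induces defensin genes in human cells, had the smallest p, at 8.20, 8.27 and 8.51 in mated rats, against 8.24, 7.80 and 7.95 in unmated rats. Its groups overlapped and it was not called (adjusted p = 0.984 by limma). In this list 9 genes were higher and 10 lower, the median difference was -0.01, and 0 passed the adjusted threshold.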

How the data were processed

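Total RNA, 0.3 µg for each animal, was labelled by a whole-transcript sense protocol, per the labels. The authors deposited log2 signals made with RMA in Affymetrix Expression Console, per the submitters' processing notes; the log2 scale was taken from the values, and versions and genome build are not given in the sources used here. RMA compresses changes of dim probe sets and hides shifts of most genes in 1 direction. Of 29214 probe sets 15310 had 1 symbol; 323 with several were left out, 2 of them with defensin symbols, and for each gene the probe set of highest mean was kept. All 45 members matched the RefSeq table by Entrez identifier, and 26 had a promoter sequence. The RefSeq table lists 54 defensin symbols, and the 9 without a member are not analysed here. Groups were compared with limma 3.58.1 in R 4.3.3 (lmFit and eBayes, two-sided, Benjamini-Hochberg over 14506 genes, threshold 0.05). The fit was tested on simulated data with shifts larger than the difference of any member. That test therefore does not cover differences of the size seen here. SDs are over 3 arrays, and precision is limited by their number. Values by animal are given for members above the receptor limit, the 2 nearest below it, and those at an unadjusted p under 0.05 or without overlap; members named for their known role or family were chosen after their values were seen. Of the other lists, the brightest gene or that of smallest p was named. Prm1, Prm2, Tnp1, Mpo, Prtn3, Ncf1, Itln1, Cdx2, Fabp2, Ccr6, Ccr2, Tlr2, Nod2 and Spag11b were chosen after their values were seen. The members and gene lists were chosen with earlier results of these data known. Smooth muscle markers, 6 of 7 above the limit, had 0 calls.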

Additional observations from a re-analysis of the deposited data

How the results depend on the processing

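In the 14 alternatives of the comparison, 0 genes and 0 defensin genes passed the adjusted threshold, by limma in each. At an unadjusted p under 0.05 the defensin count ran from 0 to 4 against 1 as reported, and the count over all genes from 432 without unmated replicate 2 to 1403 without mated replicate 1, against 663 (1207 with array weights). The defensin count was 0 without unmated replicate 1 and after leaving out the dimmest 25%, 2 without mated replicate 2, 3 without mated replicate 1, and 4 with array weights and without unmated replicate 3. The median defensin difference was -0.053 after leaving out the dimmest 25%, which kept 7 members; with 1 array left out at a time it ran from -0.01 to 0.09. The same replicate numbers did not pair the animals (correlations of same-numbered deviations 0.00, -0.08 and 0.07), and with the replicate number as a block the median was 0.04 and 3 members had an unadjusted p under 0.05. The number of members above the receptor limit was 12 at the 90th percentile, 2 at the 99th, 2 when every array had to pass, and 4 or 5 with 1 array left out, Defb39 being the fifth; it was 4 under the other scalings, with vomeronasal receptors added and with probe sets averaged. Defb42 turned to 0.0088 with array weights. With 1 array left out at a time the differences ran from -0.138 to 0.037 for Defb42, from -0.045 to 0.135 for Defb43, from -0.138 to -0.0033 for Defb21, from -0.072 to 0.143 for Defb25 and from -0.192 to 0.063 for Defb36. For Defb39 they ran from -0.343 without unmated replicate 3 to -0.013 without unmated replicate 2. The cause was not tested in any of these. Signals near background limit all but Defb25 and Defb36.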
